A study of Mus musculus with 2 samples.

Results

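Antiviral interferon-stimulated genes were measured in the spleens of female mice that had received silica (SiO2) or the phosphate-buffered saline vehicle (PBS). The 44 genes form a curated list of well known targets of type I interferon. They were chosen by name, with earlier results of these data known. A probe was matched to 41 of the 44, and all 41 were above background on both arrays, among 16774 named genes that were above background on at least 1 array. The remaining 3, Mx1, Mx2 and Ddx60, were not matched to a probe and have no value here.

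The series compares one PBS-treated spleen pool with one SiO2-remodelled spleen pool on Agilent 1-colour (Cy3) arrays. Tissue was taken on day 19 counted from the first injection, and 5 spleens were pooled per group; the labels give no strain, age, dose or number of injections. Per the labels' protocols, RNA was prepared with a kit that lyses red and white blood cells separately, and globin transcripts were then depleted, in both groups. With 1 array per group there is no spread between animals, no difference was tested, and the number of arrays limits the precision of every value. Sizes are therefore described against a 2-fold line, and every "higher" or "lower" compares these 2 pools of RNA.

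Type I interferons signal through the receptor chains Ifnar1 and Ifnar2 and the kinases Jak1 and Tyk2. The factor that results, which contains Stat2 and Irf9, binds an interferon-stimulated response element (ISRE) in the promoters of its targets. Interferon gamma has its own receptor and acts mainly on gamma-activated sites (GAS). The induced genes encode sensors of foreign nucleic acid, proteins that block steps of viral growth, and regulators of the response itself.

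The ISRE core was searched as GAAA, any 2 bases, then GAAA, and equally as TTTC, any 2 bases, then TTTC for the other strand. The promoter window was 300 bases long, from 250 before to 50 after the annotated start. The RefSeq promoter table (GRCm38.p6) held 33 of the 44 genes, with 43 windows. Usp18, Zbp1, Dhx58, Rtp4, Parp9, Parp10, Parp14, Ifi27, Tor3a, Mx1 and Mx2 had no entry. An ISRE match was present in 15 of the 43 windows (34.9%), and in 1131 of all 32851 windows of the table (3.44%). The stretches printed here were chosen after the matches and the array differences had been seen, to show how the element lies in genes that were at least 2-fold lower and in 2 that were not (Isg15 and Rsad2); all read 5′ to 3′ on the strand of the gene, with the matched bases in capitals. The coordinates are those of the printed stretches and not of the whole genes. The stretch of Ifit1 lies at chr19:34640765-34640833 on the plus strand and that of Ifit3 at chr19:34583353-34583436 on the plus strand. That of Isg15 lies at chr4:156200855-156200916 on the minus strand and that of Bst2 at chr8:71537567-71537622 on the minus strand. That of Apol9b lies at chr15:77729015-77729070 on the plus strand and that of Trim30a at chr7:104465200-104465249 on the minus strand. That of Stat2 lies at chr10:128270256-128270305 on the plus strand and that of Rsad2 at chr12:26456543-26456592 on the minus strand.
Ifit1: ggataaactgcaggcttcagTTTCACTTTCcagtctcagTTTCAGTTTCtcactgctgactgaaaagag
Ifit3: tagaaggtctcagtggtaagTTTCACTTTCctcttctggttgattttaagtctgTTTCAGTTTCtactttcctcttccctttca
Isg15: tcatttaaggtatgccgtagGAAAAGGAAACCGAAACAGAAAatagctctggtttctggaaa
Bst2: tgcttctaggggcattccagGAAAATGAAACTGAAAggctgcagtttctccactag
Apol9b: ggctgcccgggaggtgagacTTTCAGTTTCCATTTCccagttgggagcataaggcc
Trim30a: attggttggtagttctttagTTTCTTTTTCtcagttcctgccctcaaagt
Stat2: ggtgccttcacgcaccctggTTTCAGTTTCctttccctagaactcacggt
Rsad2: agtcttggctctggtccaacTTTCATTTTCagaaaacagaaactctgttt
Ifit1 and Ifit3 carry 2 separate matches each. In Isg15, 3 matches overlap into 1 run of capitals, and in Bst2 and Apol9b 2 matches overlap.

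The GAS core was searched as TTCNNNGAA, where N is any base; it reads the same on both strands. It was present in 8 of the 43 windows (18.6%) and in 2726 of all 32851 (8.3%). The stretch printed around the match of Irf1 lies at chr11:53769904-53769952 on the plus strand. That of Isg20 lies at chr7:78913331-78913379 on the plus strand. Both are shown because these 2 genes differed between the pools in opposite directions.
Irf1: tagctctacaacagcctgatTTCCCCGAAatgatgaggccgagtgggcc
Isg20: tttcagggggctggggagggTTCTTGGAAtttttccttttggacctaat
A match is a description of letters in the window and not a measured binding site.

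Most of the antiviral genes were lower in the SiO2 spleen. In bulk RNA, fewer cells of a type and less RNA per cell cannot be told apart. Of the 41 measured, 23 (56.1%) were at least 2-fold lower, 3 (7.32%) were at least 2-fold higher and 15 lay within 2-fold. Among all 16774 named genes, 3.7% were at least 2-fold lower and 6.62% at least 2-fold higher. Over the 15894 genes above background on both arrays, which is the condition all 41 met, the shares were 3.52% and 6.37%. A difference below 0 was seen in 36 of the 41 (87.8%), against 47.7% of all named genes. Because the list was chosen with earlier results of these data known, these shares describe the list and are no independent test of it. The median log2 difference of the 41 was -1.12, with quartiles of -1.51 and -0.53, while the median of all named genes was 0.03. Of the 41, 9 lay past the line by less than 0.25 on the log2 scale (Ifitm3, Parp14, Parp10, Dhx58, Irf7, Dtx3l, Trim21, Ifit2 and Parp12), and 2 lay short of it by less than 0.25 (Parp9 and Lgals3bp).

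**Figure D1:**
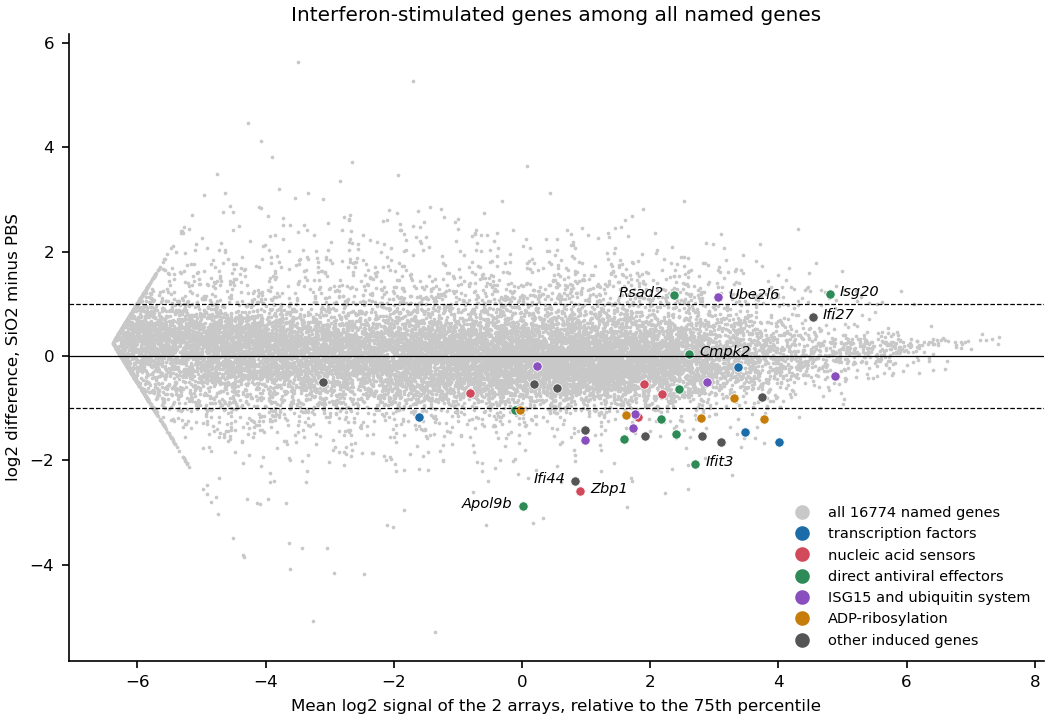
Each point is a named gene, with the mean log2 signal of both arrays relative to the 75th percentile on the x axis and the log2 difference, SiO2 minus PBS, on the y axis; coloured points are the 41 antiviral genes by role and dashed lines mark 2-fold. The coloured points lie mostly below 0, with 23 past the lower line and Isg20, Rsad2 and Ube2l6 past the upper one.

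The levels below are given as relative signal, the signal of a gene's brightest probe as a multiple of the 75th percentile of its own array. The scale compares the same gene between the pools and does not rank genes against each other. Probes spotted several times on an array give the only error available. The SD of log2 signal among repeated spots was 0.059 in PBS and 0.063 in SiO2 at the median of 305 probes, and the SD this gives for a difference was 0.086 at the median and 0.269 at the 95th percentile of 296 probes. Ifitm3 was read by 10 spots in PBS and 9 in SiO2, with an SD of 0.136 for its log2 difference of -1.21. This error covers spots on an array and no animals, pools or labelling reactions.

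Of the transcription factors on the list, 3 of 4 were at least 2-fold lower. Irf1, an early induced activator of interferon and interferon-gamma targets, stood at 28.5 in PBS and 9.05 in SiO2, 3.15-fold lower. Stat2, a transcription factor of the type I signal, stood at 18.5 and 6.74, 2.75-fold lower. Irf7, the amplifier of interferon-alpha production, stood at 0.490 and 0.219, 2.24-fold lower. With another background correction (normexp) Irf7 gave a log2 difference of -0.768, short of the 2-fold line. Irf9, the DNA-binding subunit of the same complex as Stat2, stood at 11.1 in PBS and 9.60 in SiO2, a log2 difference of -0.21. Stat2 and Irf9 thus differed in size, although both belong to one complex. A dimmer second probe of Irf1 gave -1.16 against -1.66 by the brightest.

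Sensors and responders to foreign nucleic acid were all below 0, and 2 of the 5 measured passed the 2-fold line. Zbp1, the sensor of left-handed nucleic acid that can trigger necroptosis, stood at 4.59 in PBS and 0.757 in SiO2, 6.06-fold lower, and its second probe gave a log2 difference of -2.51. Dhx58, which encodes the RIG-I-like receptor LGP2, stood at 5.24 and 2.33, 2.25-fold lower. Adar, the RNA-editing adenosine deaminase that keeps self RNA from being sensed, stood at 5.85 and 3.50, a log2 difference of -0.74. Eif2ak2, which encodes the RNA-activated kinase PKR that stops translation, stood at 0.727 and 0.443, a difference of -0.72. Both thus lay short of the line. Ifih1, which encodes the double-stranded RNA sensor MDA5, stood at 4.49 and 3.10, a difference of -0.53. Its dimmer second probe gave 0.06, the only one of the 13 second probes with the opposite sign, so the direction for Ifih1 depends on the probe.

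Among the direct antiviral effectors, 6 of the 10 measured were at least 2-fold lower and 2 at least 2-fold higher. Apol9b, an interferon-induced apolipoprotein L, had the lowest difference of all 41 antiviral genes, at 2.74 in PBS and 0.372 in SiO2, 7.38-fold lower. The IFIT family, of which Ifit1 binds viral RNA that lacks host cap methylation, was lower in each of its measured members. Ifit3 stood at 13.4 and 3.19, 4.19-fold lower, Ifit1 at 5.20 and 1.73, 3.00-fold lower, and Ifit2 at 1.32 and 0.644, 2.06-fold lower. Bst2 and Ifitm3 were lower as well. Bst2, which encodes tetherin, the surface protein that holds budding virions, stood at 8.94 and 3.15, 2.84-fold lower. Ifitm3, which blocks fusion of viruses in endosomes, stood at 6.87 and 2.96, 2.32-fold lower. Samd9l, a restriction factor of poxviruses, stood at 6.79 and 4.40, a log2 difference of -0.63.

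A few effectors ran the other way. Isg20, a 3′ exonuclease that degrades RNA, stood at 18.5 in PBS and 42.1 in SiO2, 2.28-fold higher, and its second probe gave a log2 difference of 1.40. Rsad2, which encodes viperin, a radical-SAM enzyme that makes a chain-terminating nucleotide, stood at 3.44 and 7.77, 2.26-fold higher. Cmpk2, the mitochondrial nucleotide kinase whose gene is the neighbour of Rsad2, stood at 6.02 and 6.17, a difference of 0.04. Isg20 and Rsad2 were thus more than 2-fold higher in a set where most effectors were lower, and Cmpk2 was near 0 and took either sign with the scaling.

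The ISG15 and ubiquitin group was divided. Usp18, the protease that removes ISG15 from proteins and also dampens receptor signalling, stood at 3.47 in PBS and 1.13 in SiO2, 3.08-fold lower. Trim30a, a tripartite motif protein, stood at 5.35 and 2.06, 2.59-fold lower, and Trim21, the cytosolic antibody receptor, at 4.99 and 2.30, 2.17-fold lower. Those 3 passed the line. Trim25, the ubiquitin ligase of RIG-I signalling, stood at 8.74 and 6.21, a log2 difference of -0.49. Isg15, the ubiquitin-like modifier, stood at 33.9 and 26.0, a difference of -0.39 with -0.30 by its second probe. Herc6, which encodes the main ligase that attaches ISG15 in the mouse, stood at 1.26 and 1.098, a difference of -0.20. Ube2l6, the conjugating enzyme that passes ISG15 on, stood at 5.64 and 12.3, 2.19-fold higher. The modifier, its conjugating enzyme, its ligase and its protease thus spanned log2 differences from -1.62 to 1.13.

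Genes of ADP-ribosylation were lower in a narrow range. Parp14 stood at 20.8 in PBS and 9.04 in SiO2, 2.30-fold lower, Parp10 at 10.5 and 4.61, 2.28-fold lower, and Parp12 at 1.40 and 0.682, 2.05-fold lower; these encode transferases of single ADP-ribose units. Dtx3l, the ubiquitin ligase that pairs with Parp9, stood at 4.57 and 2.08, 2.20-fold lower, and its second probe gave a log2 difference of -0.96. Parp9 stood at 13.0 and 7.47, a difference of -0.80. Parp14, Dtx3l and Parp9 are adjacent genes, with differences of -1.20, -1.14 and -0.80. The adjacent Ifit2 and Ifit3 lay further apart, at -1.04 and -2.07, and the adjacent Rsad2 and Cmpk2 at 1.17 and 0.04.

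Of the other induced genes, 5 of 10 passed the lower line and 0 the upper one. Ifi44, an antiviral gene of incompletely known mechanism, stood at 4.10 in PBS and 0.777 in SiO2, 5.27-fold lower. Rtp4, a chaperone of receptors that also binds viral replication complexes, stood at 15.3 and 4.83, 3.16-fold lower. Phf11d, a PHD finger gene, stood at 11.9 and 4.11, 2.89-fold lower. These 3 were read by a single probe. Xaf1, a pro-apoptotic antagonist of XIAP, stood at 3.23 and 1.21, 2.66-fold lower, with -1.35 by its second probe. Tor3a, a torsin ATPase, stood at 6.43 and 2.23, 2.88-fold lower, but its second probe gave a log2 difference of -0.29. The 2-fold call for Tor3a thus rests on the brighter probe.

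The rest of that group lay within 2-fold. Lgals3bp, a secreted ligand of galectin-3, stood at 17.6 and 10.2, a log2 difference of -0.80, and Ifi35, a partner of Nmi, at 1.81 and 1.18, a difference of -0.61. Epsti1 stood at 1.38 and 0.947, a difference of -0.55. Sp100, a component of PML nuclear bodies, gave a dim signal, at 0.138 and 0.0973, a difference of -0.50. Ifi27, a mitochondrial protein gene, stood at 17.9 and 29.9, a difference of 0.74, and was the only gene of the group above 0.

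**Figure D2:**
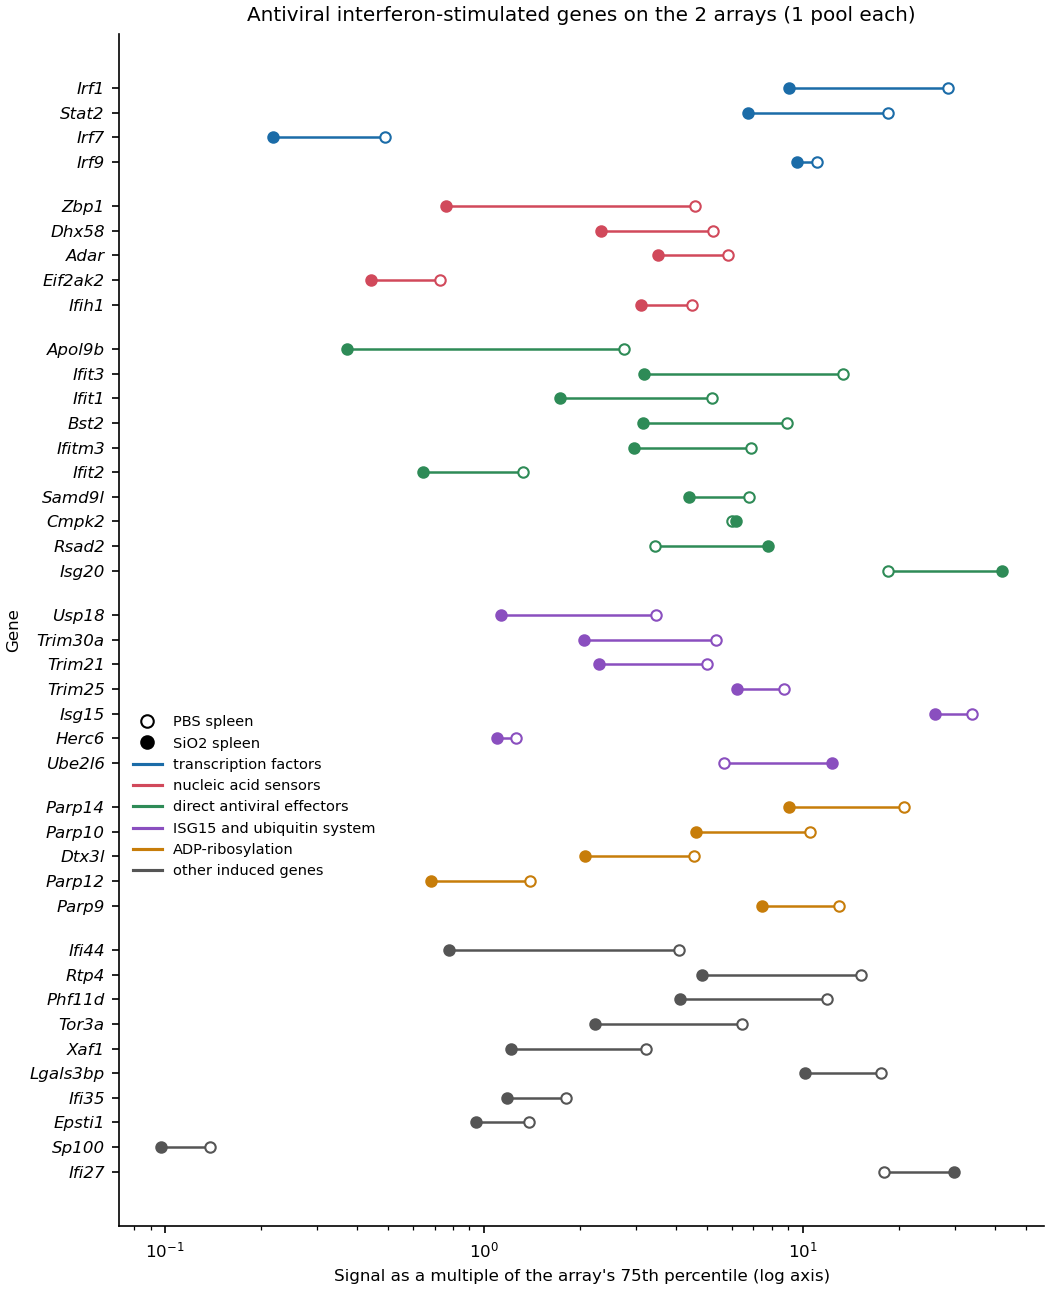
Signal of each of the 41 antiviral genes on both arrays, as a multiple of the array's 75th percentile on a log axis, ordered by role and then by difference; open circles are the PBS pool and filled circles the SiO2 pool, 1 array each. The filled circle lies left of the open one for 36 genes and right of it for Isg20, Rsad2, Ube2l6, Ifi27 and Cmpk2.

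At a 4-fold line, Apol9b, Zbp1, Ifi44 and Ifit3 remained, 4 of 41, against 0.483% of all named genes, and no antiviral gene was 4-fold higher. Some of these genes have close relatives in the mouse genome, among them Ifit3, Apol9b, Trim30a and Phf11d. Probe sequences were not used here, so signal from a near-identical relative cannot be told apart from that of the named gene. Of 13 second probes, 12 had the sign of the brightest one, and 4 of those also passed the 2-fold line (Isg20, Irf1, Zbp1 and Xaf1). The second probe of Irf1 was very dim, with unscaled signals of 32.67 in PBS and 10.23 in SiO2, against 19110 and 4248 for the brightest. Its 2-fold difference thus adds little.

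The scale on which the arrays are compared moved the counts. B cell markers had a median difference of -0.54 with 0 of 10 past 2-fold, and T cell markers -0.25 with 0 of 12. Setting the B and T cell markers to 0, a shift of 0.343 on the log2 scale, left 14 antiviral genes at least 2-fold lower and made 4 at least 2-fold higher, with Ifi27 as the fourth. Under that shift 1.66% of all named genes were at least 2-fold lower and 13.3% at least 2-fold higher, and the all-gene median was 0.374. Across 9 ways of scaling, background correction and probe choice, 13 genes stayed at least 2-fold lower wherever they were measured: Apol9b, Zbp1, Ifi44, Ifit3, Ifit1, Irf1, Rtp4, Usp18, Phf11d, Bst2, Stat2, Xaf1 and Trim30a. Isg20, Rsad2 and Ube2l6 stayed at least 2-fold higher under all 9. Their lowest log2 differences were 1.084, 1.122 and 1.002, so Ube2l6 only just kept its call, with normexp correction. Irf9, Herc6 and Cmpk2 took both signs. The 9 settings are not independent, and some could change little. Leaving out the filter changed no value, because every measured antiviral gene was above background on both arrays. Median scaling and the other percentile only shift all genes by a small constant. The mean over probes leaves genes with a single probe as they were. Stat2, Bst2 and Rtp4 had no value in the authors' deposited table.

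**Figure D3:**
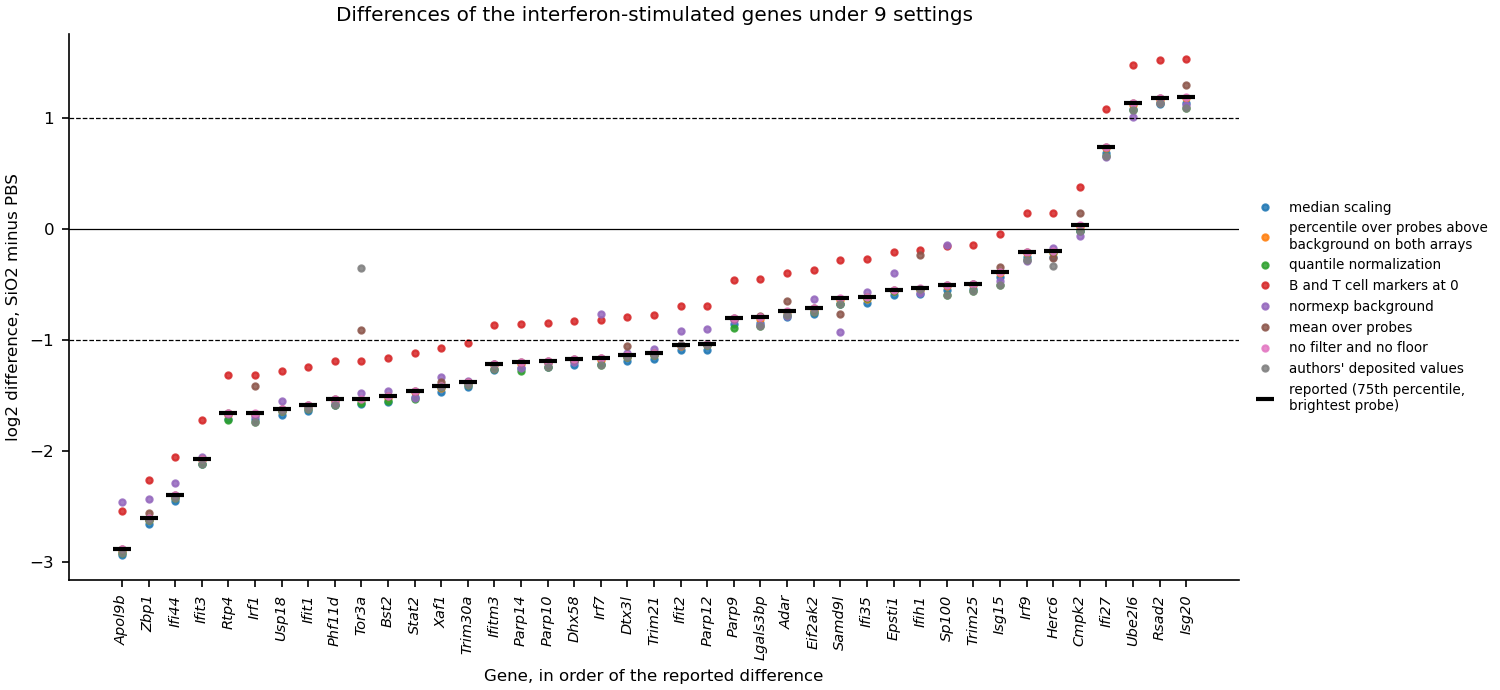
Log2 difference, SiO2 minus PBS, of each antiviral gene under the reported setting (black bars) and 8 alternatives (coloured points), with genes in order of the reported difference and dashed lines at 2-fold. The red points, with B and T cell markers set to 0, lie 0.343 above the bars, and the points for Tor3a spread from -1.58 to -0.35.

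The rest of the pathway was described from lists of its other genes. None of the 9 receptor and kinase genes passed 2-fold in either direction, and their median was -0.18. Ifnar1 stood at 1.501 in PBS and 1.23 in SiO2, a log2 difference of -0.29, and Ifnar2 at 3.23 and 2.65, also -0.29. The mean over the probes of Ifnar1 gave -0.001, so its difference depends on the probe. The interferon-gamma receptor chains gave -0.26 for Ifngr1 and -0.19 for Ifngr2, and the interferon-lambda chains 0.26 for Ifnlr1 and 0.06 for Il10rb. The kinases gave 0.11 for Jak1, -0.10 for Jak2 and -0.18 for Tyk2. The receptors and kinases upstream of the antiviral genes all lay within 0.3 of 0 on this scale.

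Interferon genes themselves gave dim signals. Of 17 listed, 14 had a probe and 10 were above background, with a median of 0.28. Ifnb1, Ifna4, Ifne and Ifnk were not above background on either array. Ifng, the product of natural killer and T cells, stood at 0.363 in PBS and 0.188 in SiO2, a log2 difference of -0.95. Ifna12 stood at 0.0544 and 0.143, a difference of 1.40 that was 0.76 after another background correction and 0.29 in the authors' deposited values. The other alpha-type genes ranged from -0.77 for Ifna11 through -0.51 for Ifna1, 0.02 for Ifna2, 0.23 for Ifnab, 0.34 for Ifna5, 0.34 for Ifna14 and 0.43 for Ifna13, and Ifnl3, an interferon lambda, gave 0.80. Interferon-alpha genes are near-identical copies, so which of them a probe read is uncertain.

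Among STAT and IRF genes outside the list, those reported here lay within 2-fold. Irf8 gave -0.87, Stat3 -0.84, Irf5 -0.67, Stat5a -0.26, Irf2 -0.20, Stat6 -0.18, Irf3 -0.15, Irf4 -0.04, Stat4 -0.02 and Stat5b 0.21. Among sensing and induction genes, 6 of 21 passed the lower line and 0 the upper one, with a median of -0.53. They were Nlrc5 (-1.56), the activator of MHC class I genes, the DNA exonuclease Trex1 (-1.39), Tlr3 (-1.37), Ddx58 (-1.34), which encodes RIG-I, Tlr7 (-1.23) and the nucleotide hydrolase Samhd1 (-1.17). The adaptor Mavs gave 0.18 and the kinase Tbk1 0.63. Negative regulators had a median of -0.25, and 1 of 11, Socs1, an induced inhibitor of Jak kinases, was at least 2-fold lower at 2.48 in PBS and 0.543 in SiO2.

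Genes best known as targets of interferon gamma were mostly lower too. In this list 10 of 16 genes were at or past the lower line and 0 past the upper one, with a median of -1.25. Ido1, at 0.83 with a dim signal, was the only gene of the list above 0. The GTPases Iigp1 and Gbp5 gave -2.21 and -2.04, Gbp3 -1.76, Igtp -1.75 and Irgm1 -1.38. The checkpoint ligand Cd274 gave -1.44 and the immunoproteasome subunit Psmb9 -1.12. Tap1 lay at the 2-fold line and is counted among the 10, but it gave -0.903 with normexp correction. In the oligoadenylate synthetase family, 4 of 8 were at least 2-fold lower, led by Oas2 at -2.56. The antiviral list and these 2 lists thus had medians of -1.12, -1.25 and -1.02, while those of the receptors and kinases and of the negative regulators were -0.18 and -0.25. With B and T cell markers at 0, the medians were -0.905 for the interferon-gamma list, -0.674 for the oligoadenylate synthetases, 0.162 for the receptors and kinases and 0.09 for the negative regulators, so the last pair changed sign. In the authors' deposited values the interferon-gamma list had a median of -1.81 and the negative regulators 0.04. Those values lack Ciita, Ido1, Cd274, Cd74 and Psmb9 of the first list and Socs3 and Irf2bp1 of the second. The 2 medians thus cover fewer genes and do not show a change of processing alone.

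**Figure D4:**
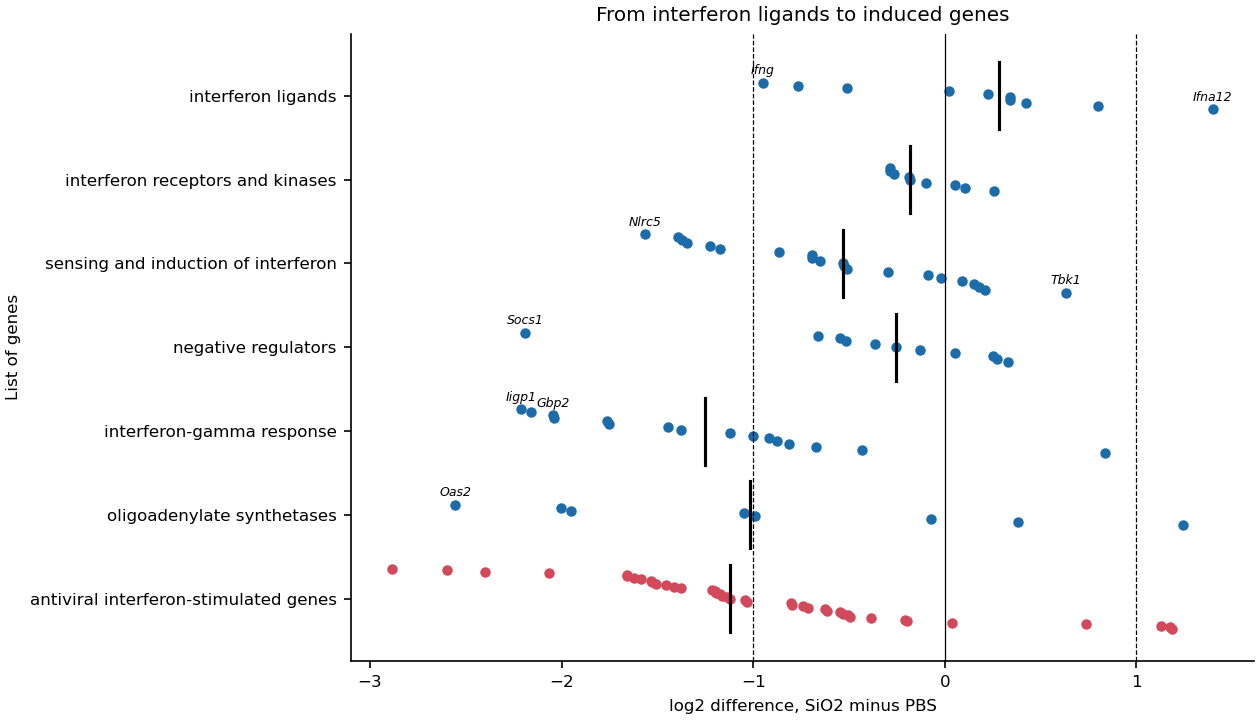
Log2 difference, SiO2 minus PBS, of each measured gene in 6 lists of the interferon pathway (blue) and of the 41 antiviral genes (red); black bars are list medians and dashed lines mark 2-fold. The receptor and kinase genes lie within 0.3 of 0, and the interferon-gamma response, oligoadenylate synthetase and antiviral lists have medians of -1.25, -1.02 and -1.12.

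The promoter matches were set beside the differences. Of the 32 measured genes with a promoter entry, 12 had an ISRE match, of which 8 were at least 2-fold lower and 1, Rsad2, was at least 2-fold higher, with a median of -1.29. The 20 without a match held 8 that were lower and 2 that were higher, with a median of -0.68. Isg15, with 3 overlapping matches, gave -0.39, and Apol9b, with 2 overlapping matches in the stretch shown, gave -2.88. Among the named genes off the list, 11.6% of 510 with a match were at least 2-fold lower, against 3.02% of 12769 without one. With B and T cell markers at 0 these shares were 7.25% and 1.23%. The 510 include other interferon-induced genes. For GAS, 4 of 8 genes with a match and 12 of 24 without were at least 2-fold lower, with medians of -0.89 and -0.92. No match says only that these letters are not in the window.

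**Figure D5:**
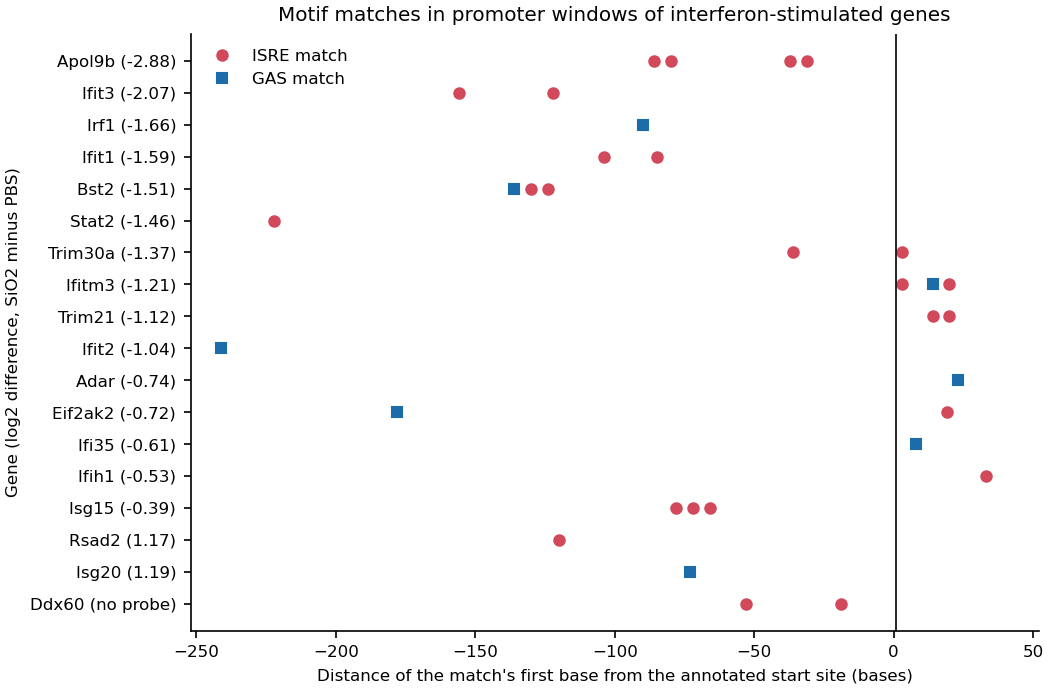
Distance in bases from the annotated start site to the first base of each ISRE match (circles) and GAS match (squares) in the promoter windows of 18 antiviral genes, ordered by log2 difference, SiO2 minus PBS, which stands beside each name except Ddx60, which has no probe; the vertical line is the start site and Apol9b is drawn from more than 1 window. The matches of the 6 lowest genes shown lie upstream of the start, as do those of Isg15, Rsad2 and Isg20, the 3 highest; those of Ifitm3, Trim21, Adar, Ifih1 and Ifi35 lie downstream of it.

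Cell type markers differed between the pools as well. Of 8 natural killer cell markers, 7 were at least 2-fold lower, with a median of -1.88. Their summed relative signal was 16.9 in PBS and 3.53 in SiO2. Ncr1 gave -1.87 and Gzma -2.62. That count depends on the processing. With normexp background correction, Klrb1c (-0.893), Klrk1 (-0.663), Eomes (-0.978) and Klre1 (-0.621) fell short of 2-fold. Ncr1 (-1.167), Klra8 (-1.766) and Gzma (-2.625) stayed past it, and Prf1 gave 0.205. With B and T cell markers at 0, Klrk1 (-0.853) and Eomes (-0.932) fell short. Erythroid markers were at least 2-fold higher in 10 of 10, with a summed signal of 50.7 and 177, and neutrophil markers in 5 of 8, with 83.8 and 188. Of the other neutrophil markers measured, S100a8 gave 0.93 and S100a9 0.39, while Cxcr2 went the other way at -0.80. Summed signals are weighted towards the brightest probes, such as Gzma at 11.6 in PBS among the natural killer cell markers. Monocyte and macrophage markers (1 of 6 lower, 39.5 and 22.3), red pulp macrophage markers (2 of 6 lower, 73.3 and 48.8) and conventional dendritic cell markers (3 of 7 lower, 8.52 and 4.54) had medians of -0.78, -0.65 and -0.64. Mesothelial markers were lower in 6 of 7, with a summed signal of 5.28 and 0.842, and 3 of the 7 were not above background in SiO2. Plasmacytoid dendritic cells, the main producers of interferon alpha, had 1 of 10 markers past the line and a median of -0.18, with a summed signal of 101 and 81.3. Their defining gene Siglech stood at 45.6 and 46.2 by its brightest probe but gave -0.93 in the authors' deposited values. Summed signals of B cell markers were 106 and 74.9 and those of T cell markers 24.6 and 19.6. Of the stromal markers 1 of 5 was lower, with 11.7 and 5.51, and Nkx2-3, a transcription factor of spleen development, was above background in both pools at 0.552 and 0.391. The part of these cell types in the differences of the antiviral genes was not tested.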

How the data were processed

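Agilent 1-colour mouse arrays of 1 PBS and 1 SiO2 spleen pool were used. The deposited intensity values are background-subtracted spot signals from Agilent Feature Extraction, version 11.0.1.1 per the file headers and 9.1 per the submitters' processing notes; no other scaling between arrays had been applied to them. Each array held 43020 non-control spots, of which 145 (PBS) and 148 (SiO2) flagged as outliers were left out; 75.5% and 74.9% were well above background and 0 were saturated. Both headers name the same scan. The 75th percentile of signal was 669.5 in PBS and 469.3 in SiO2. Spots of a probe were averaged, log2 signal minus the array's 75th percentile was taken, and each gene was given by its brightest probe. Of 39398 probes, 27217 (69.1%) were named with 1 symbol through RefSeq accessions (GRCm38.p6). The authors' deposited log2 table (26049 probes) had a median of 5.68 for each array and tracked the scanner values with slopes of 0.994 and 1.006. How it was scaled is not stated, and it served as an alternative. Its differences were close to those of quantile scaling for most antiviral genes, such as Ifit1 (-1.619 in both) and Zbp1 (-2.616 in both). It is thus not independent of that setting. It holds fewer probes, so the probe that gives a gene can differ. Gaps were larger for Tor3a (-0.352 against -1.566 with quantile scaling) and Siglech (-0.928 against -0.105). With 1 array per group no test was run. Alternatives changed the scaling, the background correction (normexp, limma 3.58.1, R 4.3.3, offset 50, on median spot signal), the probe rule, the filter and the fold line. Calculations used Python 3.11.15 and pandas 2.3.3, and were tested on simulated data. All antiviral genes are named with their values; pathway genes are named where they are ligands, receptors, STAT or IRF genes, differ at least 2-fold or are close relatives, and a few of them are not reported here. The members and lists were chosen with earlier results of these data known.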

Additional observations from a re-analysis of the deposited data

How the results depend on the processing

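With B and T cell markers at 0, the median of the antiviral genes was -0.775 instead of -1.12, 14 instead of 23 were at least 2-fold lower, the median over all pathway genes was -0.087 instead of -0.43, and 5 pathway genes instead of 2 were at least 2-fold higher. The count of 2-fold higher pathway genes was 1 with normexp correction, with the mean over probes and in the authors' deposited values. A 4-fold line left 4 antiviral genes lower and 0 higher and 7 pathway genes lower and 0 higher, and a 1.5-fold line gave 37 pathway genes lower and 6 higher; these follow from the threshold itself. Under median scaling, quantile scaling and a percentile over probes above background on both arrays, 23 antiviral genes were at least 2-fold lower and 3 higher, as reported; the number lower was 20 with normexp, 22 with the mean over probes and 17 of the 33 found in the deposited values. No paired analysis was possible because each group has 1 array. Dim signal limits Sp100, Irf7 and the interferon genes, although Sp100 and Irf7 were above background on both arrays.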
